A study of Mus musculus with 11 samples.

Results

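Secreted growth factors that act on blood and lymphatic vessels or on epithelium were followed in bone marrow stromal cells after doxorubicin, with 9 genes in all: Vegfa, Pgf, Vegfb, Vegfc, Angpt1, Angpt2, Angptl4, Fgf7 and Hgf. They were taken by gene symbol, whatever their values, from a table of 24718 genes, and all 9 of 9 were present and passed the filter on low counts. The cells were mesenchymal stem and progenitor cells (MSPCs) from the marrow of female mice, sorted for the red fluorescent protein tdTomato. In these mice Cre recombinase driven by the leptin receptor gene (genotype Lepr-Cre;LSL-tdTomato+/-) switches the reporter on, so every cell that has ever expressed Lepr, and its progeny, can carry it, and all groups shared this genotype. The DOX4X group (4 mice, stated to be 8 to 10 weeks old) received 4 intravenous injections of doxorubicin at 5 mg/kg with 1 week between them. The DOX1X group (3 young adult mice) received 1 intravenous injection at 10 mg/kg, and the PBS group (4 mice, age not stated) received 4 intravenous injections of phosphate-buffered saline. Doxorubicin is an anthracycline that poisons topoisomerase II, and the cells were collected 8 weeks after treatment, with 1 RNA library per mouse.

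VEGFA is the main growth and permeability factor of blood vessel endothelium and signals through the receptor tyrosine kinase KDR, while PGF and VEGFB bind FLT1 and not KDR, and VEGFC drives lymphatic and sinusoidal endothelium through FLT4. ANGPT1 keeps vessels quiescent through the receptor TEK (Tie2), and ANGPT2 acts on the same receptor, often as an antagonist. ANGPTL4 does not bind TEK and is best known as an inhibitor of lipoprotein lipase. FGF7 (keratinocyte growth factor) and HGF are stromal factors whose receptors, an isoform of FGFR2 and MET, lie mainly on epithelial cells, although HGF also acts on endothelium. In marrow, leptin receptor positive stromal cells line the sinusoids and are known as a source of ANGPT1 and VEGFC for the vessels around them.

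Vegfa and other members are textbook targets of hypoxia-inducible factors, which recognise a short core motif. Promoter windows of 250 bases upstream of annotated starts were found for 6 of the 9 members (Vegfa, Pgf, Vegfb, Vegfc, Fgf7 and Hgf) in RefSeq on build GRCm38.p6. The core was searched as ACGTG or GCGTG on both strands, where CACGTG would count once on each strand, and 5 of the 9 windows of these members held at least 1 match, against 38.6% of 32851 windows of the same length from all genes. For Vegfa the window of the upstream start (chr17:46032378-46032627, minus strand) held 0 matches. Its matches, 2 in number, lay in the window of a start further downstream (chr17:46025164-46025413). Pgf and Vegfc are shown because they are the members with a promoter in the table whose unadjusted p fell under 0.05 in some comparison below. Pgf has 2 annotated starts, and the window of the upstream one (chr12:85177314-85177563, minus strand, 68.4% G and C), printed here, held 1 match, starting at position -124 from the start site and given in capitals. The other Pgf window (chr12:85175983-85176232, 66.4% G and C) held 0 matches. The Vegfc window (chr8:54077282-54077531, plus strand, 71.6% G and C) held 0 matches, so it has no capitals. The median window over all genes was 52.4% G and C.
Pgf: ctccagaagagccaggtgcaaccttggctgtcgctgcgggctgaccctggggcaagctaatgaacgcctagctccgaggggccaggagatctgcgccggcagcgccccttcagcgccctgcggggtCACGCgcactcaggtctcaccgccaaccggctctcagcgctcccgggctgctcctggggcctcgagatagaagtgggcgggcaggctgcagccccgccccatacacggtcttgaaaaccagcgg
Vegfc: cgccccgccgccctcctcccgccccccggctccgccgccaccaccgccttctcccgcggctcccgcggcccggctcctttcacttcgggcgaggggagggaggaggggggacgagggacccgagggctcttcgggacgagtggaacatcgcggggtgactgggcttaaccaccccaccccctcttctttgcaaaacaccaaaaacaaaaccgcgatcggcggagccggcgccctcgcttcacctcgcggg
These matches describe letters in the sequence and say nothing of which factor binds there.

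Before the members are compared, some facts of the libraries bear on every value. Totals ran from 29540422 to 42784036 counts per library, and each member had at least 564 counts in every library, so counting error weighs most on Vegfb (564 to 835 counts) and Hgf (636 to 1242 counts). Labels disagree for PBS replicate 4, whose title opens with DOX although the treatment given is PBS and the library is numbered with the controls. It stays in the PBS group here, and values without it are given where a result rests on it. Flow cell 2, read from the column names, held all DOX4X libraries and DOX1X 3, and flow cell 1 held DOX1X 1, DOX1X 2 and all PBS libraries. DOX4X and PBS therefore differ in flow cell throughout, and its share in any difference cannot be told apart from treatment except through the DOX1X libraries. Every flow cell term below thus rests on DOX1X 3 against DOX1X 1 and 2. Stromal marker transcripts were abundant in all libraries: the 14 stromal markers, among them Cxcl12 and Lepr, summed to 63060 to 74181 CPM (counts relative to the scaled total of the library) in DOX4X, 62867 to 78901 CPM in DOX1X and 69013 to 79193 CPM in PBS. Cxcl12 made up most of these sums, so they say little of the other stromal markers. Blood-cell markers (35 genes) summed to 578 to 1557 CPM in DOX4X, 472 to 1411 CPM in DOX1X and 367 to 881 CPM in PBS, and megakaryocyte and platelet markers (11 genes) to 75.1 to 498 CPM, 270.3 to 1638 CPM and 62.6 to 757 CPM in the same 3 groups. As these are bulk samples, fewer cells of a type and less RNA per cell cannot be told apart.

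Per length, the members spanned a wide range of levels. Levels between genes are given as CPM per kilobase of merged exons, with exon lengths from an annotation of build GRCm38, and as means over the 11 libraries. Angptl4 stood highest at 118 CPM per kb, followed by Fgf7 at 115 and Vegfc at 111, which placed these genes at ranks 284, 299 and 308 of 17352 genes with a length. Their ranges over the libraries overlapped, and Angptl4 exceeded Fgf7 in 5 of 11 libraries, so their order is not resolved. Vegfa followed at 63.5 CPM per kb and was below Vegfc in 11 of 11 libraries. Angpt1 had 40.2 and Angpt2 34.1 CPM per kb, with Angpt1 above Angpt2 in 10 of 11 libraries. Pgf (24.8 CPM per kb) and Vegfb (12.8 CPM per kb) came next, and Hgf was lowest at 3.86 CPM per kb, rank 8016, below Vegfb in 11 of 11 libraries. The order of Pgf, Vegfb and Hgf at the low end was therefore identical in all 11 libraries, whereas the order of Angptl4, Fgf7 and Vegfc differed between libraries, and Vegfa stood above Angptl4 in PBS 3.

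**Figure D1:**
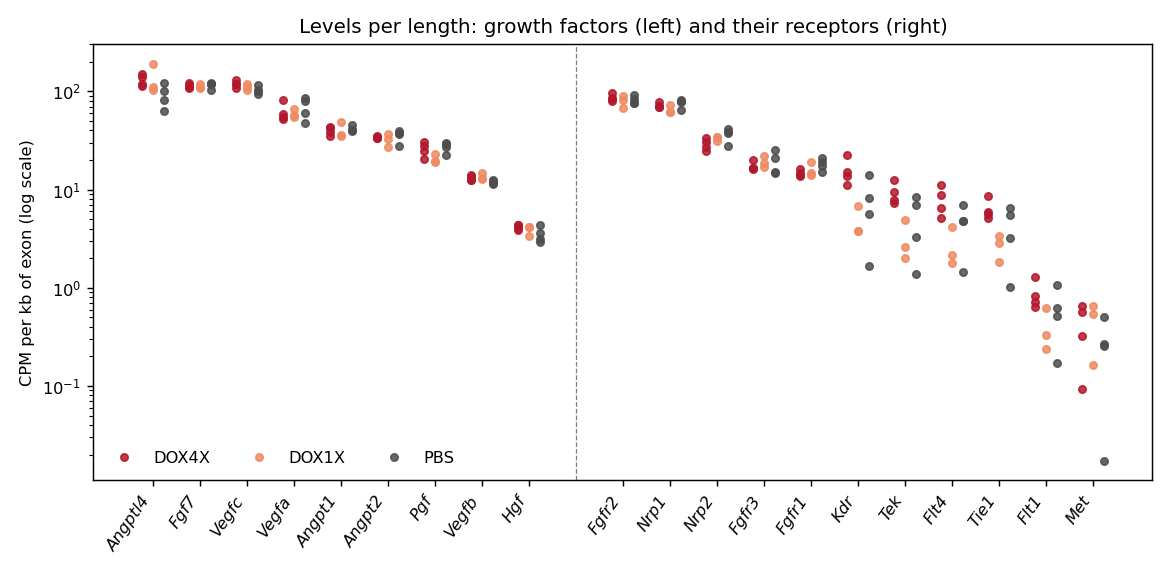
Levels of the 9 growth factors (left) and of 11 receptor genes (right) in CPM per kb of exon on a log scale, with a point for each library and columns of points for DOX4X, DOX1X and PBS within each gene. Angptl4, Fgf7 and Vegfc lie highest among the factors and Hgf lowest, while the receptors fall into an upper set (Fgfr2, Nrp1, Nrp2, Fgfr3, Fgfr1) and a lower set with a wide spread between libraries.

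The main question of the design is whether marrow stromal cells of treated mice express these factors differently from those of control mice. Each difference went through the quasi-likelihood test of edgeR over 17838 genes with Benjamini-Hochberg adjustment, and a gene is said to have passed when its adjusted p was under 0.05. None of the 9 members passed in DOX4X against PBS, in DOX1X against PBS or in DOX4X against DOX1X, and 0 passed with DESeq2 or limma-voom. By edgeR 0.146% of all genes tested passed in DOX4X against PBS, 0.00561% in DOX1X against PBS and 0.00561% in DOX4X against DOX1X. In the same order DESeq2 passed 3.31%, 0.275% and 0.151% of them, and limma-voom 0.314%, 0.00561% and 0.00561%. Without adjustment, 2 members had a p under 0.05 in DOX4X against PBS (Vegfc and Angptl4, both higher), where 13.9% of all genes did. The single dose against PBS also gave 2 members (Angptl4 higher, Pgf lower), against 7.16% of all genes, and in DOX4X against DOX1X it was 1 (Pgf, higher), against 4.36%. These shares of all genes, and those of each tool above, are the measure for the counts of every list below. The median log2 fold change of the 9 members was -0.02 in DOX4X against PBS, -0.04 in DOX1X against PBS and 0.07 in DOX4X against DOX1X, while the medians of all genes tested were 0.014, 0.0057 and -0.0011. With flow cell as a term the members' medians were 0.21, 0.02 and 0.19, so those against PBS changed sign, and with the endothelial marker level as a term the DOX4X against PBS median was 0.08. The comparisons with PBS share the same 4 control libraries, so they are not independent of each other.

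Vegfa, the principal vascular growth factor, varied between mice of the same group. DOX4X 1 to 4 had 354, 250.3, 225 and 234 CPM, DOX1X 1 to 3 had 233, 245 and 285 CPM, and PBS 1 to 4 had 206, 257, 366 and 340 CPM. The lowest and the highest of the 11 values were both PBS libraries, so the treated values lay inside the control range. Means were 266 ± 59.5 CPM in DOX4X (SD, n = 4), 254 ± 27.1 CPM in DOX1X (SD, n = 3) and 292 ± 73.9 CPM in PBS (SD, n = 4). The log2 fold change was -0.14 (SE 0.19, 95% interval -0.54 to 0.27) in DOX4X against PBS and -0.20 (SE 0.20, -0.64 to 0.24) in DOX1X against PBS, with edgeR adjusted p = 0.81 and 0.83. These intervals still hold a loss or a gain of Vegfa of moderate size.

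Pgf, a FLT1 ligand of the same family, was lowest after the single dose. DOX4X 1 to 4 had 59.2, 70.9, 87.8 and 81.4 CPM, DOX1X 1 to 3 had 66.3, 56.9 and 55.4 CPM, and PBS 1 to 4 had 84.4, 85.9, 79.6 and 64.9 CPM. The DOX4X values overlapped both other groups, while DOX1X and PBS overlapped through PBS 4 alone. DOX4X against PBS gave a log2 fold change of -0.07 (SE 0.13, 95% interval -0.35 to 0.21). The single dose against PBS gave -0.40 (SE 0.14, unadjusted p = 0.014, edgeR adjusted p = 0.60), with -0.48 when PBS 4 was left out and -0.36 within flow cell 1, which holds 2 DOX1X libraries. DOX4X against DOX1X gave 0.33 (SE 0.14, unadjusted p = 0.036, edgeR adjusted p = 1.00). None of these differences passed the test over all genes.

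Vegfb, also a FLT1 ligand and linked to fatty acid handling, was the member whose treated groups did not overlap with PBS. DOX4X 1 to 4 had 19.99, 21.5, 20.1 and 22.5 CPM, DOX1X 1 to 3 had 20.4, 23.7 and 20.8 CPM, and PBS 1 to 4 had 18.8, 19.86, 18.3 and 19.6 CPM. Each treated library was above each control library, by a small margin at DOX4X 1 and PBS 2. This made 1 of 9 members higher without overlap in each comparison with PBS, where 3.17% of all genes were higher without overlap in DOX4X and 3.18% in DOX1X. The log2 fold changes were 0.14 (SE 0.08) for DOX4X and 0.18 (SE 0.09) for DOX1X against PBS, with edgeR adjusted p = 0.50 and 0.72. The 2 treated groups themselves overlapped, with a log2 fold change of -0.04 (SE 0.09) in DOX4X against DOX1X.

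Vegfc, the ligand of the lymphatic and sinusoidal receptor FLT4, ran the other way from Vegfa. The DOX4X libraries 1 to 4 had 263, 293, 294 and 323 CPM, DOX1X 1 to 3 had 290.1, 270.2 and 249.96 CPM, and PBS 1 to 4 had 287, 252, 228 and 246 CPM. All DOX4X libraries were above 3 of the 4 controls, and PBS 1 lay inside the DOX4X range. Means were 293 ± 24.3 CPM in DOX4X (SD, n = 4), 270.1 ± 20.1 CPM in DOX1X (SD, n = 3) and 253 ± 24.7 CPM in PBS (SD, n = 4). In DOX4X against PBS the log2 fold change was 0.21 (SE 0.09, 95% interval 0.02 to 0.41, unadjusted p = 0.037, edgeR adjusted p = 0.33). It was 0.20 without PBS 4 and 0.38 with flow cell as a term in the fit. DOX1X against PBS gave 0.09 (SE 0.10).

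**Figure D2:**
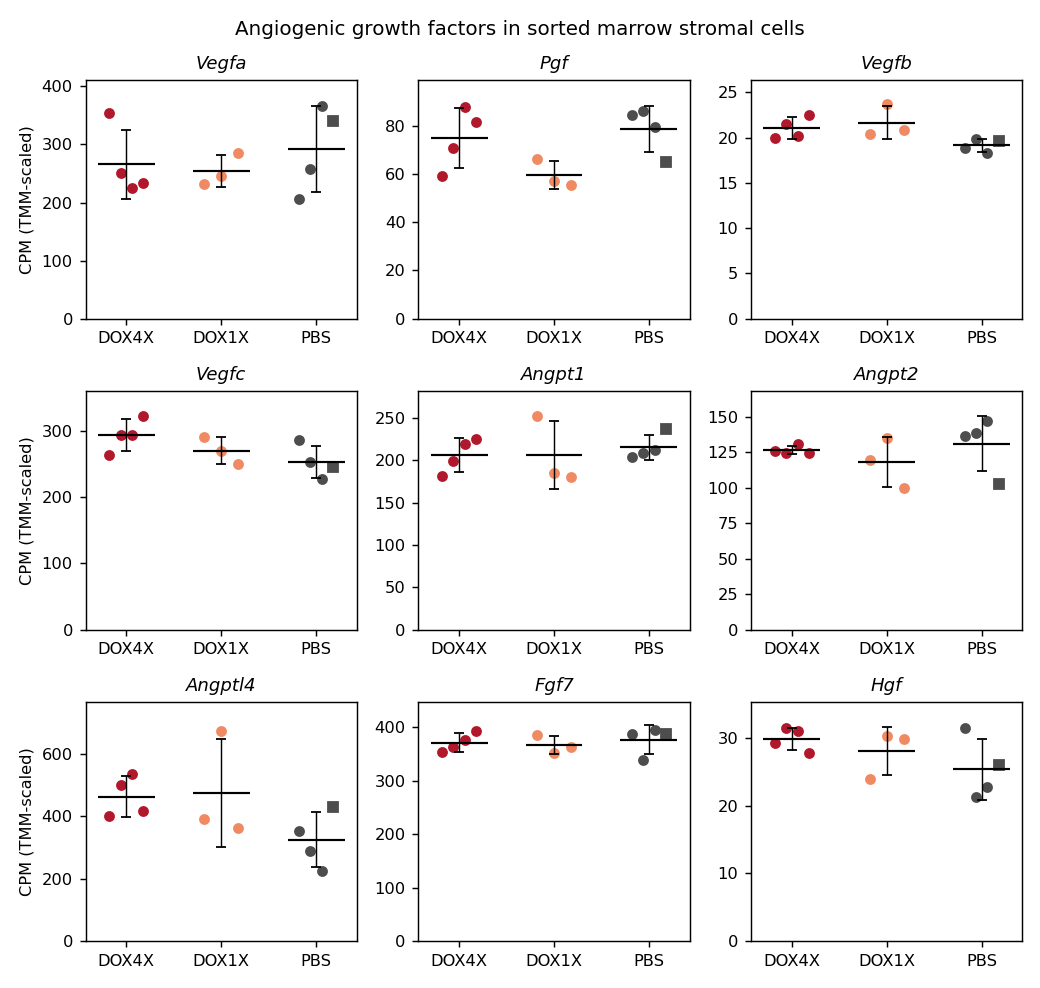
CPM scaled by TMM of the 9 growth factors, with a point for each library, a horizontal line at the group mean and whiskers of 1 SD, and groups in the order DOX4X, DOX1X, PBS; the square marks PBS 4. Vegfb is the panel in which both treated groups lie wholly above PBS, and Angptl4 shows a single high DOX1X library at 675 CPM.

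The angiopoietins overlapped between all groups. For Angpt1, DOX4X 1 to 4 had 181, 199, 219 and 225 CPM, DOX1X 1 to 3 had 252, 185 and 181 CPM, and PBS 1 to 4 had 204, 209, 211 and 237 CPM. Angpt2 had 126, 125, 131 and 125 CPM in DOX4X, 119, 135 and 99.96 CPM in DOX1X, and 136, 138, 147 and 103 CPM in PBS. Groups overlapped for both genes, but for Angpt2 the controls overlapped the treated libraries through PBS 4 alone. The other controls, at 136, 138 and 147 CPM, lay above all treated libraries. The spread of Angpt2 was small in DOX4X (coefficient of variation 2.37%) next to DOX1X (14.9%) and PBS (14.8%). In DOX4X against PBS the log2 fold changes were -0.06 (SE 0.11, 95% interval -0.31 to 0.18) for Angpt1 and -0.05 (SE 0.11, -0.30 to 0.20) for Angpt2. After the single dose they were -0.06 (SE 0.12) for Angpt1 and -0.15 (SE 0.12) for Angpt2. With a library left out in turn, Angpt2 ran from -0.15 to 0.0089 in DOX4X and from -0.26 to -0.043 in DOX1X against PBS.

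Since both angiopoietins compete for TEK, their ratio was taken within each library, which is free of library scaling. Counts of Angpt2 over Angpt1 ran between 0.554 and 0.696 in DOX4X, between 0.474 and 0.729 in DOX1X and between 0.435 and 0.695 in PBS. The low end of the controls was PBS 4, and the other 3 controls lay between 0.663 and 0.695. On the log2 scale the ratio averaged -0.70 ± 0.14 in DOX4X (SD, n = 4), -0.80 ± 0.31 in DOX1X (SD, n = 3) and -0.73 ± 0.32 in PBS (SD, n = 4). Two-sided exact permutation tests gave a difference of 0.03 for DOX4X minus PBS (p = 0.91), -0.07 for DOX1X minus PBS (p = 0.74) and 0.10 for DOX4X minus DOX1X (p = 0.57), each with an adjusted p of 0.91 over the 3 comparisons; the smallest p these designs allow is 0.0286. Without PBS 4 the first difference was -0.13 (exact permutation p = 0.20).

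Angptl4 had the largest fold changes of the 9 members in both comparisons with PBS. DOX4X 1 to 4 had 399.9, 501, 536 and 417 CPM, DOX1X 1 to 3 had 390.2, 675 and 361 CPM, and PBS 1 to 4 had 354, 289.6, 224 and 429 CPM. Of the 7 treated libraries, 4 lay below PBS 4 and all lay above the other 3 controls. Means were 463 ± 65.5 CPM in DOX4X (SD, n = 4), 475 ± 173 CPM in DOX1X (SD, n = 3) and 324 ± 88.1 CPM in PBS (SD, n = 4). The log2 fold change was 0.52 (SE 0.23, 95% interval 0.02 to 1.01, unadjusted p = 0.042, edgeR adjusted p = 0.34) in DOX4X against PBS. After the single dose it was 0.55 against PBS (SE 0.24, 0.02 to 1.08, unadjusted p = 0.042, edgeR adjusted p = 0.67). Without PBS 4 these were 0.68 and 0.72, and without DOX1X 2 the single-dose value was 0.21. With flow cell as a term, DOX4X against PBS gave 1.08 (SE 0.44, edgeR adjusted p = 0.47). That term rests on DOX1X 3 (361 CPM) against DOX1X 1 and 2 (390.2 and 675 CPM), so this value also depends on DOX1X 2. Within flow cell 1 DOX1X against PBS gave 0.71 (SE 0.28). DOX4X against DOX1X gave -0.04 (SE 0.24).

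Fgf7 had the narrowest range of the 9 members over the 11 libraries, relative to its level. Levels in DOX4X 1 to 4 were 354, 363, 376 and 393 CPM, DOX1X 1 to 3 had 385, 353 and 363 CPM, and PBS 1 to 4 had 387, 338, 396 and 388 CPM. Its coefficient of variation was 4.63% in DOX4X, 4.51% in DOX1X and 7.0% in PBS, against 14.1%, 36.5% and 27.2% for Angptl4. The log2 fold changes were -0.02 (SE 0.07, 95% interval -0.18 to 0.14) in DOX4X and -0.04 (SE 0.08, -0.21 to 0.13) in DOX1X against PBS, so that larger differences lie outside the intervals of this keratinocyte growth factor.

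Hgf, the MET ligand, had lower values in 3 of the 4 controls. Among libraries, DOX4X 1 to 4 had 29.2, 31.4, 31.0 and 27.8 CPM, DOX1X 1 to 3 had 23.9, 30.2 and 29.9 CPM, and PBS 1 to 4 had 31.5, 21.2, 22.7 and 25.9 CPM. The highest of the 11 values was PBS 1, so the groups overlapped although 3 controls lay below all DOX4X libraries. The log2 fold change in DOX4X against PBS was 0.23 (SE 0.13, 95% interval -0.04 to 0.51, edgeR adjusted p = 0.44), and in DOX1X against PBS it was 0.14 (SE 0.14). Hgf counts were between 0.0706 and 0.0866 of Fgf7 counts in DOX4X, 0.0621 and 0.0856 in DOX1X, and 0.0574 and 0.0813 in PBS.

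**Figure D3:**
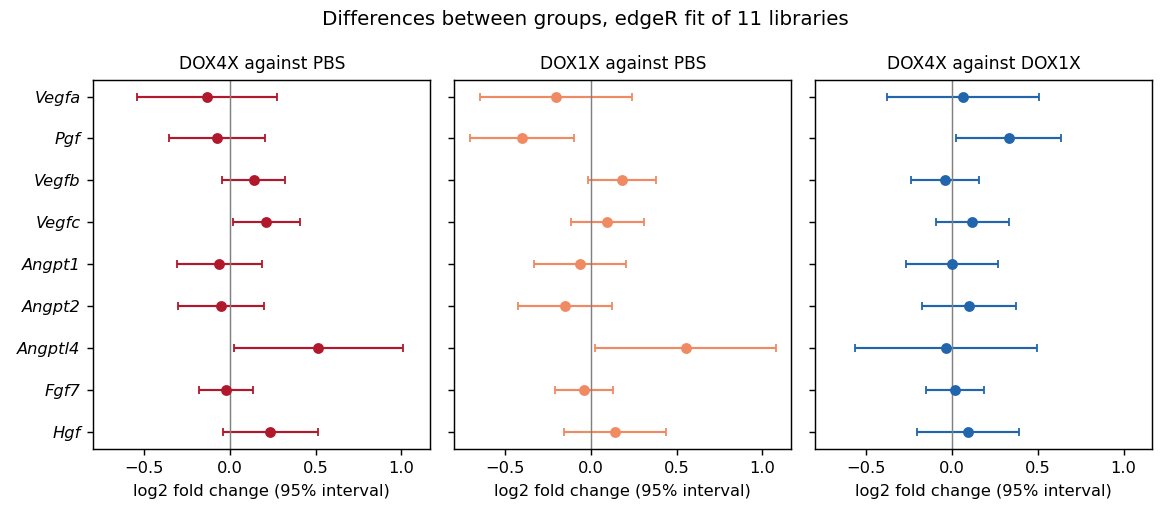
Log2 fold changes of the 9 members in the 3 comparisons from the edgeR fit of all 11 libraries, with whiskers of the unadjusted 95% interval and a vertical line at 0. The intervals of Vegfc and Angptl4 in DOX4X against PBS, of Angptl4 and Pgf in DOX1X against PBS, and of Pgf in DOX4X against DOX1X do not reach 0, and none of the 27 differences passed after adjustment over all genes.

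Among the members, covariation over the 11 libraries was uneven and is given as a description, since the libraries share depth, scaling and treatment. Of the 36 pairs, Vegfb and Angptl4 had the highest Pearson r of log2 CPM at 0.75, followed by Angptl4 and Hgf at 0.68. The lowest was Vegfa with Vegfc at -0.77. Angpt1 and Angpt2 had r = -0.07. Over 10701 genes with a mean of at least 5 CPM, the gene most like Vegfa was Acp6 (r = 0.92), the gene most like Vegfc was Glrx (r = 0.93) and the gene most like Pgf was Emc3 (r = 0.93). For Angptl4 it was Erp29 (r = 0.87), and Txnip, its next gene (r = 0.86), was also among the 3 nearest to Vegfb (r = 0.84). For Vegfb it was Amacr (r = 0.92), for Angpt2 Gpr107 (r = 0.92), for Fgf7 Zfp26 (r = 0.91), for Hgf Dusp4 (r = 0.85) and for Angpt1 Fbh1 (r = 0.85).

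The receptors of the members split by level. Per length, Fgfr2 had 83.0 CPM per kb, Nrp1 (a co-receptor of VEGFA) 71.6 and Nrp2 (a co-receptor of VEGFC) 32.7, followed by Fgfr3 at 18.5 and Fgfr1 at 16.3. The endothelial receptor kinases were lower, with Kdr at 9.66, Tek at 6.03, Flt4 at 5.26, Tie1 at 4.51 and Flt1 at 0.639 CPM per kb, and Met was lowest at 0.367 CPM per kb. Gene counts do not separate the FGFR2 isoform that binds FGF7 from the others. None of the 11 receptors passed in any comparison with edgeR, DESeq2 or limma-voom. Those with an unadjusted p under 0.05 by edgeR were 3 in DOX4X against PBS, 1 in DOX1X against PBS and 5 in DOX4X against DOX1X. Of all genes, 13.9%, 7.16% and 4.36% had such a p in the same order. The receptors had a median log2 fold change of 0.54 in DOX4X against PBS, -0.22 in DOX1X against PBS and 0.14 in DOX4X against DOX1X. Without PBS 4 the medians against PBS were 0.24 for DOX4X and -0.29 for DOX1X, with 2 and 6 receptors at an unadjusted p under 0.05, all lower. With flow cell as a term the medians were 0.04, -0.18 and 0.46, with 1 receptor at an unadjusted p under 0.05 in each comparison.

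Kdr, Flt4, Tek, Tie1 and Flt1, the receptor kinases of endothelium, were the receptors with the widest spread. Kdr had 99.4, 205, 135 and 124 CPM in DOX4X 1 to 4, 33.9, 34.1 and 61.5 CPM in DOX1X 1 to 3, and 73.6, 127, 50.7 and 15.0 CPM in PBS 1 to 4. Every DOX4X value was above every DOX1X value, and the controls, from PBS 4 at the low end to PBS 2, overlapped both. The log2 fold change of Kdr was 1.08 (SE 0.48, unadjusted p = 0.045, edgeR adjusted p = 0.35) in DOX4X against PBS and 1.71 (SE 0.54, edgeR adjusted p = 0.89) in DOX4X against DOX1X. Against DOX1X, Flt4 had 1.56, Tek 1.55, Tie1 1.23 and Flt1 1.12, and all 5 were higher without overlap, where 3.19% of all genes were. Without PBS 4, Kdr in DOX4X against PBS was 0.75, and with flow cell as a term it was 0.23 (SE 0.95).

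These 5 receptors belong to the 21 endothelial markers, and the list as a whole ran in the same direction. Endothelial markers summed to 827 to 1463 CPM in DOX4X, 343 to 597 CPM in DOX1X and 256 to 947 CPM in PBS, and PBS 4 was the lowest library. In DOX4X against PBS 21 of 21 had a positive log2 fold change (median 0.82), in DOX1X against PBS 19 of 21 had a negative one (median -0.58), and in DOX4X against DOX1X 20 of 21 were positive (median 1.51), with 0 passing in each by edgeR and 8, 0 and 19 at an unadjusted p under 0.05. Of all genes, 13.9%, 7.16% and 4.36% had such a p in the same order. DESeq2 passed 1 of the endothelial markers, in DOX4X against DOX1X, where it passed 0.151% of all genes. Without PBS 4 the DOX4X against PBS median was 0.57 with 3 genes at an unadjusted p under 0.05, and the DOX1X against PBS median was -0.88 with 11 such genes, all lower. With flow cell as a term the medians were 0.05 in DOX4X against PBS, -0.90 in DOX1X against PBS and 0.92 in DOX4X against DOX1X, and 0 genes had an unadjusted p under 0.05 in either DOX4X comparison. That term rests on DOX1X 3 (a sum of 597 CPM) against DOX1X 1 and 2 (343 and 542 CPM), so flow cell and treatment cannot be told apart here. Pecam1, an endothelial adhesion molecule, averaged 43.1 ± 15.0 CPM in DOX4X (SD, n = 4), 21.0 ± 7.36 CPM in DOX1X (SD, n = 3) and 23.0 ± 9.29 CPM in PBS (SD, n = 4). Cdh5, the cadherin of endothelial junctions, averaged 25.5 ± 7.44, 7.49 ± 3.60 and 13.0 ± 6.72 CPM in the same groups and counts. The members are not part of this list, and the DOX4X against PBS difference was fitted again with the endothelial marker level as a term. Angptl4 was then at 0.66 (SE 0.29), Vegfc at 0.19 (SE 0.12), Hgf at 0.17 (SE 0.16), Vegfb at 0.13 (SE 0.11), Pgf at -0.18 (SE 0.15) and Angpt2 at -0.15 (SE 0.14), each of the same sign as without the term. Vegfa at 0.08 (SE 0.22), Angpt1 at 0.08 (SE 0.13) and Fgf7 at 0.04 (SE 0.09) changed sign. Egfl7, a secreted endothelial factor (0.94, SE 0.31), Eng, a TGF-beta co-receptor (0.40, SE 0.13), and Sox17, an arterial transcription factor (1.12, SE 0.46), were among the endothelial markers with the smallest p in DOX4X against PBS.

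Nrp1, Nrp2, Fgfr1 and Fgfr2 were steadier than the endothelial receptor kinases, and bulk libraries do not show which cells these transcripts came from. Nrp1 averaged 702 ± 41.8 CPM in DOX4X (SD, n = 4), 638 ± 65.7 CPM in DOX1X (SD, n = 3) and 745 ± 75.1 CPM in PBS (SD, n = 4). Nrp2 had 323, 360.5, 294 and 393 CPM in DOX4X, 367, 401 and 404 CPM in DOX1X, and 456, 441, 487 and 332 CPM in PBS, with the 3 higher controls above all treated libraries. Its log2 fold change was -0.32 (SE 0.12, unadjusted p = 0.022, edgeR adjusted p = 0.28) in DOX4X against PBS, and -0.43 (SE 0.10, edgeR adjusted p = 0.10) without PBS 4. Fgfr1 was at -0.30 (SE 0.12, unadjusted p = 0.028, edgeR adjusted p = 0.30), and at -0.05 with flow cell as a term. Fgfr2 was at 0.08 (SE 0.10, 95% interval -0.15 to 0.30). With the endothelial marker level as a term, DOX4X against PBS gave -0.49 (SE 0.13) for Nrp2 and -0.44 (SE 0.14) for Fgfr1.

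**Figure D4:**
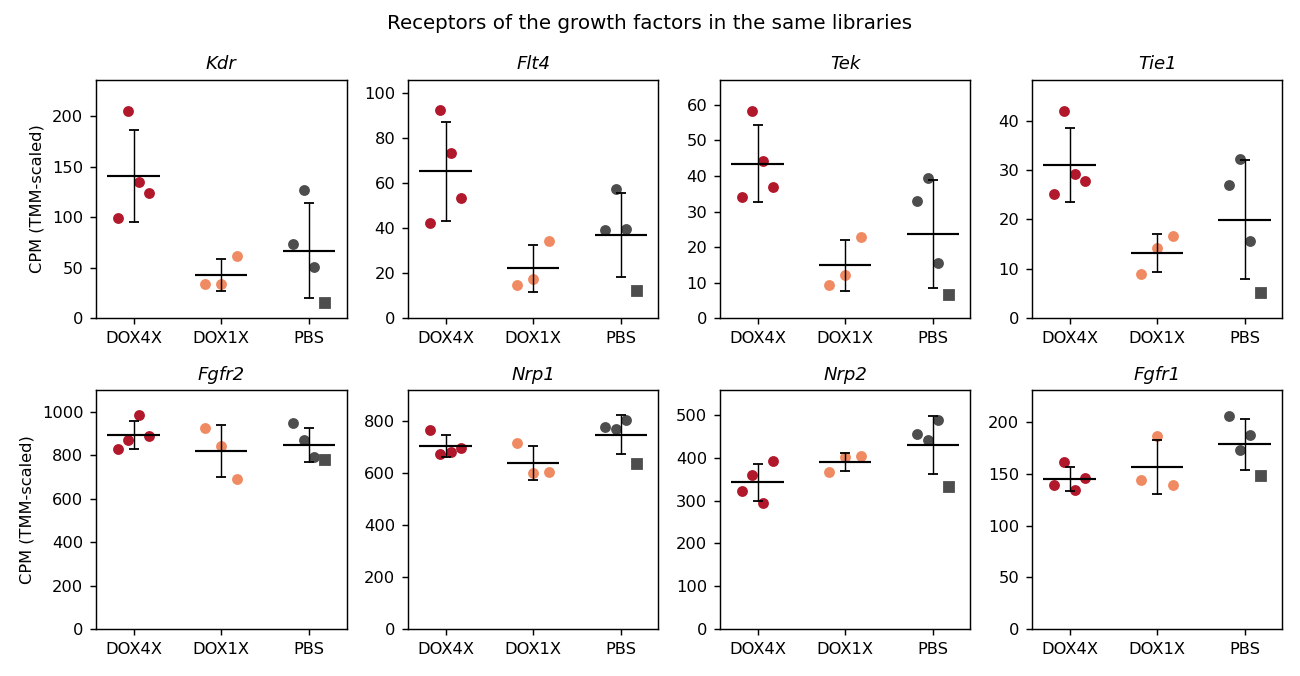
CPM of 8 receptor genes, with a point for each library, the mean and 1 SD, groups in the order DOX4X, DOX1X, PBS, and a square for PBS 4. The endothelial receptor kinases in the upper row lie higher in every DOX4X library than in every DOX1X library, while the lower row holds the more abundant Fgfr2, Nrp1, Nrp2 and Fgfr1, with means that differ by less.

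Relatives of the members, Angptl1 and Angpt4, had larger fold changes than any of the 9 members in DOX4X against PBS. Angptl1, an angiopoietin-like protein described as an inhibitor of vessel growth, had 159, 139, 112 and 174 CPM in DOX4X 1 to 4, 158, 158 and 198 CPM in DOX1X 1 to 3, and 246, 222, 228 and 232 CPM in PBS 1 to 4. All 7 treated libraries lay below all 4 controls. Of 17838 genes, 834 (4.68%) were lower without overlap in DOX4X against PBS and 682 in DOX1X against PBS. In DOX4X against PBS the log2 fold change of Angptl1 was -0.67 (SE 0.13). It had an edgeR adjusted p of 0.083, a DESeq2 adjusted p of 2.7e-04 and a limma-voom adjusted p of 0.048. Angptl1 thus passed with 2 of the 3 tools, where DESeq2 passed 3.31% of all genes and limma-voom 0.314%. In DOX1X against PBS Angptl1 was at -0.44 (SE 0.14, edgeR adjusted p = 0.60), and at -0.56 within flow cell 1. Angpt4, the third TEK ligand, was higher per length than Angpt1 or Angpt2, at 86.7 CPM per kb over the 11 libraries. It had 144, 162, 169 and 199.6 CPM in DOX4X, 113, 131 and 235 CPM in DOX1X, and 281, 334, 263 and 197 CPM in PBS. Both treated groups overlapped the controls through PBS 4 alone, which lay below DOX4X 4 and DOX1X 3. The other controls lay above all treated libraries. The log2 fold changes of Angpt4 were -0.67 (SE 0.22, edgeR adjusted p = 0.23) in DOX4X and -0.75 (SE 0.24, edgeR adjusted p = 0.60) in DOX1X against PBS. With flow cell as a term, Angpt4 in DOX4X against PBS was -1.61 (SE 0.30, edgeR adjusted p = 0.12). Adding the blood-cell marker level instead gave -0.33 (SE 0.23).

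Beyond these, the list of other secreted angiogenic factors held 22 genes, of which 18 were tested, and 0 passed by edgeR in any comparison, against 2 by DESeq2 and 1 by limma-voom in DOX4X against PBS. Its median log2 fold change was -0.07 in DOX4X against PBS, with 4 genes at an unadjusted p under 0.05, all lower. That median was 0.11 once flow cell was added to the fit. Besides Angptl1 and Angpt4 these were Ptn, which encodes the heparin-binding growth factor pleiotrophin (-0.94, SE 0.27), and Ecm1, a secreted matrix protein (-0.43, SE 0.13). Ptn averaged 41.5 ± 5.32 CPM in DOX4X (SD, n = 4), 68.3 ± 12.7 CPM in DOX1X (SD, n = 3) and 79.8 ± 37.3 CPM in PBS (SD, n = 4). After the single dose 3 genes of the list had an unadjusted p under 0.05 against PBS, again all lower, and the median was -0.0018. Cxcl12, by far the most abundant of them and the leading gene of the libraries per length, averaged 50085 ± 5131 CPM in DOX4X (SD, n = 4), 53383 ± 5928 CPM in DOX1X (SD, n = 3) and 53730 ± 3101 CPM in PBS (SD, n = 4).

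**Figure D5:**
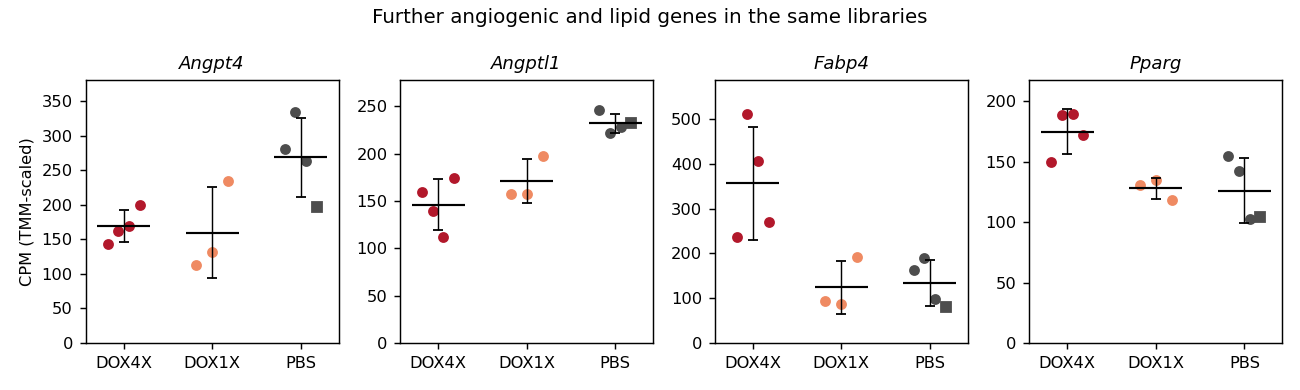
CPM of Angpt4, Angptl1, Fabp4 and Pparg, with a point for each library, the mean and 1 SD, groups in the order DOX4X, DOX1X, PBS, and a square for PBS 4. The Angptl1 values of all treated libraries lie at 198 CPM or less and those of all controls at 222 CPM or more, while Fabp4 is higher in all DOX4X libraries than in the others. Of all genes, 4.68% were lower and 3.17% higher without overlap in DOX4X against PBS.

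Proteins that activate or trap the members were mostly at low levels. Of the 15 listed genes 14 were in the table and 12 were tested, and 0 passed by edgeR and 1 by DESeq2 in DOX4X against PBS, with a median log2 fold change of -0.13 in DOX4X against PBS and -0.04 in DOX1X against PBS. The DOX4X median was 0.0084 with the blood-cell marker level as a term. Plat, tissue plasminogen activator, averaged 9.31 ± 2.44 CPM in DOX4X (SD, n = 4), 14.3 ± 4.05 CPM in DOX1X (SD, n = 3) and 21.8 ± 8.67 CPM in PBS (SD, n = 4), and its log2 fold change in DOX4X against PBS was -1.23 (SE 0.29, edgeR adjusted p = 0.12). Spint2, an inhibitor of the proteases that activate HGF, was at 0.66 (SE 0.28), Furin, a convertase that processes VEGFC, at -0.28 (SE 0.12), and Adamts3, a VEGFC-processing protease, at 0.56 (SE 0.25). Each of these 4 had an unadjusted p under 0.05 and an edgeR adjusted p of at least 0.12.

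Most secreted inhibitors of angiogenesis had negative fold changes. Of 17 listed genes 16 were tested, 12 of them with a negative log2 fold change in DOX4X against PBS (median -0.21) and 14 in DOX1X against PBS (median -0.23). By edgeR 0 passed, with 3 and 1 at an unadjusted p under 0.05, and DESeq2 and limma-voom also passed 0. Without PBS 4 the first of these counts was 6, and with flow cell as a term it was 0, with medians of -0.32 and -0.30. Over all 17838 genes, 8529 and 8700 were negative in these comparisons. Timp3, an inhibitor of metalloproteinases that also blocks VEGFA from KDR, averaged 191 ± 37.4 CPM in DOX4X (SD, n = 4), 167 ± 52.9 CPM in DOX1X (SD, n = 3) and 273 ± 55.6 CPM in PBS (SD, n = 4). In DOX4X against PBS the log2 fold change was -0.51 (SE 0.21) for Timp3, -0.38 (SE 0.15) for Adamts9, -0.39 (SE 0.16) for thrombospondin 2 (Thbs2), and 1.03 (SE 0.50) for the interferon-induced chemokine Cxcl10, with edgeR adjusted p between 0.28 and 0.39.

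The hypoxia pathway, which governs Vegfa and Angptl4 in many cells, showed small differences. Of 30 listed genes 29 were tested, with medians of -0.07 in DOX4X against PBS and -0.08 in DOX1X against PBS. By edgeR, DESeq2 and limma-voom 0 passed, with 6 and 0 at an unadjusted edgeR p under 0.05. Adding flow cell to the fit gave a DOX4X median of 0.07. Hif1a, the oxygen-regulated transcription factor subunit, was at -0.22 (SE 0.08, edgeR adjusted p = 0.27) in DOX4X against PBS. Its relative Epas1 was at -0.37 (SE 0.14), and Vhl, which marks both for degradation, at -0.17 (SE 0.06). Car9, a hypoxia-induced carbonic anhydrase, was at 1.16 (SE 0.38, edgeR adjusted p = 0.23), but at a low level of 0.977 ± 0.181 CPM in DOX4X (SD, n = 4), 0.661 ± 0.189 CPM in DOX1X (SD, n = 3) and 0.434 ± 0.189 CPM in PBS (SD, n = 4).

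Lipid genes and targets of the PPAR receptors, to which Angptl4 itself belongs, had positive fold changes in 13 of 19 genes tested in DOX4X against PBS, where 9309 of all 17838 genes did. Of the 19, 5 had an unadjusted p under 0.05 in that comparison, all higher, 0 passed by edgeR and 3 passed by DESeq2 (3.31% of all genes did), with a median log2 fold change of 0.14. After adding either flow cell or the endothelial marker level to the fit, 2 had an unadjusted p under 0.05. Pparg, the adipogenic nuclear receptor, had 149.7, 189, 189 and 172 CPM in DOX4X, 131, 135 and 119 CPM in DOX1X, and 155, 143, 102 and 105 CPM in PBS. Its log2 fold change was 0.47 (SE 0.14, edgeR adjusted p = 0.18, DESeq2 adjusted p = 0.041) in DOX4X against PBS and 0.02 (SE 0.15) in DOX1X against PBS. With the endothelial marker level as a term, Pparg in DOX4X against PBS was at 0.27 (SE 0.14), and with flow cell at 0.64 (SE 0.28). Fabp4, a fatty acid carrier of adipocytes and also of endothelium, was at 1.42 (SE 0.35, edgeR adjusted p = 0.13), at 0.71 (SE 0.24) with the endothelial marker level as a term and at 0.33 (SE 0.59) with flow cell as a term. Cd36, a fatty acid transporter of the same cell types, was at 1.37 (SE 0.38). Lpl, the lipase that ANGPTL4 inhibits, averaged 4122 ± 343 CPM in DOX4X (SD, n = 4), 3424 ± 866 CPM in DOX1X (SD, n = 3) and 2972 ± 442 CPM in PBS (SD, n = 4), and its log2 fold change in DOX4X against PBS was 0.47 (SE 0.15, edgeR adjusted p = 0.22). In DOX1X against PBS the list's median was -0.10 with 0 genes at an unadjusted p under 0.05, whereas Angptl4 was at 0.55.

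Markers of the cells themselves and of other marrow cells were read beside these results. Of the 14 stromal markers 0 passed by edgeR (4 had an unadjusted p under 0.05 in DOX4X against PBS, and 2 passed by DESeq2), with medians of -0.18 in DOX4X and -0.01 in DOX1X against PBS. Fold changes in DOX4X against PBS were negative for 9 and positive for 5, and adding flow cell to the fit gave a median of 0.15. The transcription factors Prrx1 (-0.32, SE 0.08) and Runx2 (-0.26, SE 0.07) and the receptor Pdgfra (-0.31, SE 0.12) were lower without overlap in DOX4X, as were 4.68% of all genes. Lepr averaged 5050 ± 464 CPM in DOX4X (SD, n = 4), 5408 ± 1363 CPM in DOX1X (SD, n = 3) and 6479 ± 1092 CPM in PBS (SD, n = 4). Mural markers (12 genes) had medians of 0.17 in DOX4X and -0.55 in DOX1X against PBS, with 10 of 12 positive in DOX4X and 12 of 12 negative in DOX1X. Adding flow cell to the fit put the DOX4X median at -0.61, and adding the endothelial marker level put it at -0.36. Adding the blood-cell marker level put this mural median at 1.05, with 8 genes higher and 1 lower at an unadjusted edgeR p under 0.05. Without PBS 4 it was 0.09. The mural marker with the smallest p in DOX4X, Des, an intermediate filament of muscle and pericytes, was at -0.44 (SE 0.12). Of the mural markers in DOX4X against PBS, edgeR passed 0 and DESeq2 passed 1, which was lower. Blood-cell markers had medians of 0.97 in DOX4X and 0.88 in DOX1X against PBS. By edgeR 0 passed, and 14 and 15 had an unadjusted p under 0.05, where 13.9% and 7.16% of all genes did. DESeq2 passed 7 in DOX4X against PBS, where it passed 3.31% of all genes. In that comparison the haemoglobin gene Hbb-bt was at 1.49 (SE 0.39) and the B cell gene Cd79a at 1.27 (SE 0.35). Hbb-bt shares sequence with Hbb-bs and is uncertain as a single gene. Megakaryocyte and platelet genes, of which 10 were tested, had medians of -0.07 in DOX4X and 1.14 in DOX1X against PBS, and Pf4 (platelet factor 4), itself an inhibitor of angiogenesis, averaged 87.6 ± 49.1 CPM in DOX4X (SD, n = 4), 119 ± 90.5 CPM in DOX1X (SD, n = 3) and 62.9 ± 36.6 CPM in PBS (SD, n = 4). DOX1X 2, the library with the highest Angptl4 and Vegfb, also had the highest megakaryocyte and platelet sum at 1638 CPM, and the part of those cells in its values was not tested. With the blood-cell marker level as a term, DOX4X against PBS gave 0.62 (SE 0.30) for Angptl4, 0.28 (SE 0.11) for Vegfc and 0.39 (SE 0.15) for Hgf, with edgeR adjusted p of 0.50, 0.44 and 0.42. Pgf, at 0.014, changed sign with this term. Over all alternatives except leaving out a library, Hgf in DOX4X against PBS ran from 0.09 to 0.39.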

How the data were processed

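RNA of tdTomato-sorted marrow cells from 11 mice was made into libraries with the SMART-Seq v4 Plus kit, per the labels' protocols; the kit does not mark strand. The authors deposited whole-number counts per gene, not normalized. The submitters' processing notes name STAR 2.7.9a, featureCounts 2.0.1, Trim Galore 0.6.6 and build GRCm39. How multiply mapped reads were handled, and with which annotation, is not stated there, and reads of genes that overlap on opposite strands cannot be told apart.

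Genes were kept by filterByExpr of edgeR 4.0.16 (R 4.3.3), which left 17838. Libraries were scaled by TMM (factors 0.922 to 1.07), all 11 were fitted with a mean per group, and edgeR's two-sided quasi-likelihood test was run on the 3 differences, each with p-values adjusted by Benjamini and Hochberg's method across the whole table (threshold 0.05). Intervals of fold changes are unadjusted. The Angpt2 to Angpt1 ratio used counts plus 0.5. Alternatives included DESeq2 1.42.0, limma-voom 3.58.1 with quality weights, RLE scaling, other filters, flow cell or marker level as a term, and leaving out each library. The code recovered most of the largest changes planted in simulated counts, and changes as small as those of the members were not planted. The labels call the mice biological replicates, but their litters are not given.

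The members, the 11 gene lists and the comparisons were chosen with earlier results of these data known. Text names the members, up to 4 genes per list with the smallest p in DOX4X against PBS, defining cell markers, and genes most like a member; the remaining receptors were described beyond that rule after their values were seen. Of 208 listed genes 207 were in the table and 198 were tested. Endothelial markers and receptors share 5 genes. Exon lengths came from GENCODE on GRCm38, another build than the files', and approximate those counted, so no coordinates of the deposited data are given.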

Additional observations from a re-analysis of the deposited data

Results flagged for a closer look

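Values of 26 groups of 4 libraries were examined for a library far from the other 3, and chance alone marks about 1 in 20 such groups. Fgf7 in PBS 2 was 338 CPM, with a gap to the next library of 0.855 of the group's range, while the other 3 controls lay between 387 and 396 CPM. The log2 ratio of Angpt2 to Angpt1 in PBS 4 was -1.20, with a gap of 0.897 of the range, and the other 3 controls lay between -0.59 and -0.52. PBS 4 is the library whose title and treatment label disagree.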

How the results depend on the processing

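Over the alternatives the 9 members gave 585 fold changes, of which 0 passed the threshold, and the smallest edgeR, DESeq2 or limma-voom adjusted p was 0.18; 540 kept their direction and 45 reversed, the largest at 0.36. The count of members that passed was 0 in all 65 readings, each of them 1 comparison under 1 alternative, and most fits gave a reading for all 3 comparisons. Counts of all genes were less stable. In DOX4X against PBS 26 genes passed, against 590 with DESeq2, 56 with limma-voom, 10 with the replicate block, 7 with the endothelial and 2 with the blood-cell marker term, 6 with the flow cell term, 1 with the compared groups only, and 0 to 80 when a library was left out (80 without PBS 4, 47 without DOX1X 3, 0 without DOX4X 1, 2 or 3). In DOX1X against PBS 1 passed, against 49 with DESeq2, 5 on flow cell 1 only, 6 with the replicate block and 1 to 2 without a library. In DOX4X against DOX1X 1 passed, against 27 with DESeq2, 0 with the endothelial term, 2 with the replicate block and 1 to 2 without a library. Replicate numbers did not pair the mice in the comparisons with PBS. Deviations of same-numbered libraries correlated between -0.12 and 0.096 there, and 1 of 8 and 1 of 6 libraries correlated best with their own number. In DOX4X against DOX1X the correlations were 0.084, 0.17 and 0.35, and 4 of 6 libraries did so. Pairing by number is not settled for that comparison. The cause of each change was not tested.

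Reversed log2 fold changes in DOX4X against PBS were Vegfa at 0.084 with the endothelial term; Pgf at 0.080 with flow cell and 0.014 with the blood-cell term; Angpt1 at 0.21 with flow cell and 0.082 with the endothelial term; Angpt2 at 0.30 with flow cell; and Fgf7 at 0.0095 with a filter of 5 CPM in 3 libraries, 0.0016 with flow cell and 0.039 with the endothelial term. In DOX1X against PBS Angpt1 was at 0.030 with limma-voom, 0.023 with flow cell and 0.019 on flow cell 1 only. In DOX4X against DOX1X Vegfa was at -0.10 with flow cell and -0.093 on flow cell 2 only, Vegfb at 0.015 and 0.017 in these, Angptl4 at 0.36 in both and 0.14 with the endothelial term, Angpt2 at -0.046 with the endothelial term, Hgf at -0.0020 with flow cell, Angpt1 at -0.0041 with no filter, -0.089 with limma-voom and -0.039 with the replicate block, and Fgf7 at -0.0011 with limma-voom and -0.0027 with the replicate block. Flow cell 2 holds 1 DOX1X library, assumed there to vary like the others.

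With a library left out in turn, the log2 fold change ran from -0.16 to 0.031 for Pgf, from -0.15 to 0.0089 for Angpt2 and from -0.071 to 0.0074 for Fgf7 in DOX4X against PBS, and from -0.23 to 0.023 for Angpt1 in DOX1X against PBS. In DOX4X against DOX1X it ran from -0.10 to 0.15 for Vegfa, -0.082 to 0.029 for Vegfb, -0.086 to 0.17 for Angpt1, -0.0085 to 0.21 for Angpt2, -0.20 to 0.30 for Angptl4, -0.011 to 0.054 for Fgf7 and -0.010 to 0.15 for Hgf. The log2 ratio of Angpt2 to Angpt1 differed by -0.13 to 0.094 in DOX4X against PBS, -0.24 to 0.070 in DOX1X against PBS and -0.043 to 0.27 in DOX4X against DOX1X.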
